A study of Homo sapiens with 4 samples.

Results

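The genes described are 10 members of the machinery that takes a cell out of G1: the cyclins CCND1, CCND3, CCNE1 and CCNE2, the cyclin-dependent kinases CDK2, CDK4 and CDK6, and the CDK inhibitors CDKN1B, CDKN2C and CDKN2D. They were taken by gene symbol from 20812 targets, and each had a single amplicon. RNA was measured in HCT116 cells, a human colon cancer line, by AmpliSeq whole-transcriptome sequencing, in which a PCR amplicon is made per gene and its reads are counted. The libraries were hIDO1-overexpressing cells with 1 mM indole (IDO1 indole), the same line with DMF (IDO1 DMF), wild type cells with 1 mM indole (WT indole) and wild type cells with DMF (WT DMF), all after 24 h. IDO1 is the tryptophan-degrading enzyme at the head of the kynurenine pathway, and indole is a tryptophan-derived compound made by bacteria. The vector, its promoter and the number of clones behind the hIDO1-overexpressing line were not stated in the labels. The series describes 2 replicates each, but each group had 1 library with counts here, so no pairwise difference has a replicate check and intervals on single genes are 95% intervals that cover counting error only.

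Cells decide in G1 whether to copy their DNA. D-type cyclins pair with CDK4 or CDK6 and start the phosphorylation of the RB protein, which releases E2F transcription factors; E-type cyclins then pair with CDK2 and drive entry into S phase. The INK4 inhibitors CDKN2C and CDKN2D bind CDK4 and CDK6 and keep D cyclins off them, and CDKN1B, known as KIP1, binds whole cyclin and CDK complexes and is best known for blocking CDK2. In colon cancer cells this step sits downstream of growth factor and Wnt signalling, with CCND1 a well-known gene of both.

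CDKN2C had the widest range over the libraries of the 10 genes, so 1 of its 3 promoter windows is shown beside that of the other INK4 gene. Each window runs from 250 bases before to 50 bases after an annotated start and comes from RefSeq on GRCh38.p14, whereas the counts were made on hg19. The CDKN2C window is chr1:50968456-50968755 on the plus strand, the CDKN2D window is chr19:10568930-10569229 on the minus strand, and the files do not say which start the amplicon of either gene reads. Capitals mark the E2F core TTCCCGCC read on the opposite strand.
CDKN2C: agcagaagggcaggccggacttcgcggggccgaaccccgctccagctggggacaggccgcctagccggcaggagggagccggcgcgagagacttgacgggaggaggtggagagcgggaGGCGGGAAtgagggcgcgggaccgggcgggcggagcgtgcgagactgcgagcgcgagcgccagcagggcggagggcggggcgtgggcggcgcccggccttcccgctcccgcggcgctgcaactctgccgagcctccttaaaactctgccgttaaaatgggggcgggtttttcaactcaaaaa
CDKN2D: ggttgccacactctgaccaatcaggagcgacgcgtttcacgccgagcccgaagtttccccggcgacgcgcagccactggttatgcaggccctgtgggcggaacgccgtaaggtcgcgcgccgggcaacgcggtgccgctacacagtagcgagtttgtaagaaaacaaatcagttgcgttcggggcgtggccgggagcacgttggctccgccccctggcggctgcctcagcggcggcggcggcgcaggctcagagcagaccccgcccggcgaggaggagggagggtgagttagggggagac
The marked match lies at position -132 of the CDKN2C window, with the start as 0, and the CDKN2D window holds none. The other CDKN2C windows hold no such match either, so this contrast depends on the window shown. RefSeq windows were matched for 7 of the 10 genes, 12 windows in all, and this was the only 1 of the 12 with the core, which 3.15% of 34794 promoter windows hold on either strand. The E2F 8-letter forms TTTCCCGC, TTTGGCGC, TTTCGCGC and TTTGCCGC, present in 3.31% of all windows, and the cell cycle homology element TTTGAA, present in 15.2%, were in none of the 12. The E-box CACGTG, a palindrome that Myc-type factors bind and that 7.21% of all windows hold, occurred 3 times in the CDK4 window and once each in a CDK6 window and in the other CDKN2C windows. A match of letters is a description of the window and not evidence that a factor binds there.

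The libraries held 18283862 to 22736172 reads over 14892 to 15505 targets with reads. IDO1 itself had 2440 reads in IDO1 indole and 3451 in IDO1 DMF, against 2 reads in WT indole and 0 in WT DMF, as the labels have it. WT indole stood apart from the other 3 libraries: principal component 1, with 73.0% of the variance over 8845 genes, put WT indole at 32.6, with IDO1 indole, IDO1 DMF and WT DMF at -15.3, -13.6 and -3.69. Colon epithelial markers reached 10 CPM (read counts scaled to a common library size with TMM factors, which correct for library composition) for 6 of 9 genes in every library, with summed levels of 3899 and 3565 CPM in the IDO1 line and 4559 and 4887 CPM in wild type. Of the defining markers, CDX1 was at 0 in all 4 libraries and VIL1 and LGR5 had at most 2 reads. The leukocyte genes PTPRC and CD3E, the fibroblast genes COL1A2 and DCN and the endothelial gene CDH5 were at 0 in all libraries. Summed levels over those 3 lists were 7.44 to 9.45, 74.7 to 98.6 and 3.76 to 4.69 CPM. Each sum came mostly from a single gene with reads in every library. These were CD68 at 6.10 to 8.51 CPM, COL1A1 at 73.8 to 97.1 CPM and PECAM1 at 3.71 to 4.56 CPM. A list of 8 genes typical of embryonic kidney cell lines, written with results of these data known, separated the lines: it summed to 108 CPM in IDO1 indole and 104 CPM in IDO1 DMF, against 3.20 CPM in WT indole and 4.84 CPM in WT DMF. VIM alone held 58.5 CPM of the sum in IDO1 indole and 53.7 CPM of that in IDO1 DMF. In both of these libraries 4 of the 8 genes reached 10 CPM. PAX2 was not separable between the lines in DMF, at a fold of 1.71 (0.810 to 3.79). None of the 8 was at 0 in the IDO1 line, while 6 were at 0 in WT indole and 3 in WT DMF. Whether the source of these transcripts has a part in any difference between the lines was not tested.

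Of the D-type cyclins, CCND1 was abundant and nearly level over the libraries, while CCND3 was lower in WT indole. CCND1, the cyclin that growth signals switch on in most epithelial cells, had 11611 reads in IDO1 indole, 13922 in IDO1 DMF, 14492 in WT indole and 13823 in WT DMF, or 607, 610, 749 and 650 CPM. WT indole was highest and the 2 libraries of the IDO1 line did not differ beyond counting error. CCND1 was 1.15-fold higher (1.13 to 1.18) in WT indole than in WT DMF and 0.994-fold (0.970 to 1.02) in IDO1 indole relative to IDO1 DMF. Its excess in WT indole reached 1.41-fold, or 0.50 on the log2 scale against 0.20, when a trend with expression level was removed. CCND3, the D cyclin that can stand in for CCND1 and is prominent in blood cells, had 847 reads in IDO1 indole, 1082 in IDO1 DMF, 496 in WT indole and 842 in WT DMF, or 44.3, 47.4, 25.6 and 39.6 CPM. WT indole was lowest, WT DMF came next, and the IDO1 libraries were highest and not separable by counting error. CCND3 was 1.54-fold lower (1.38 to 1.73) in WT indole than in WT DMF, and its fold was 0.933 (0.852 to 1.02) in the IDO1 line. Fewer cells in a cell cycle phase and less RNA per cell cannot be told apart in such bulk samples, here or for the genes that follow.

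The E-type cyclins were not separable by counting error between WT indole and WT DMF. CCNE1, the main cyclin partner of CDK2 at the G1 to S step, had 425 reads in IDO1 indole, 607 in IDO1 DMF, 411 in WT indole and 457 in WT DMF, or 22.2, 26.6, 21.2 and 21.5 CPM. IDO1 DMF was above the other 3 libraries, which did not differ beyond counting error. Its fold in WT indole over WT DMF was 0.988 (0.863 to 1.13), or 1.12 with library totals. It was 1.20-fold lower (1.06 to 1.36) in IDO1 indole than in IDO1 DMF and 1.24-fold higher (1.09 to 1.40) in IDO1 DMF than in WT DMF. CCNE2, the second E cyclin, had 35 reads in IDO1 indole, 49 in IDO1 DMF, 37 in WT indole and 36 in WT DMF, at 1.83, 2.15, 1.91 and 1.69 CPM. No pair of libraries was separable for CCNE2, with a fold in WT indole over WT DMF of 1.13 (0.694 to 1.84). It was under 10 CPM everywhere and therefore is the 1 gene of the 10 left out of the counts of compared genes below.

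Among the kinases, CDK2 and CDK4 were lowest in WT indole and CDK6 was highest there. CDK2, the kinase of the E and A cyclins, had 3172 reads in IDO1 indole, 3978 in IDO1 DMF, 2116 in WT indole and 3475 in WT DMF, or 166, 174, 109 and 163 CPM. WT indole was below the other 3 libraries, and CDK2 was 1.49-fold lower (1.42 to 1.58) there than in WT DMF. This log2 fold of -0.58 moved to -0.41 with library totals and to -0.43 with a trend with expression level removed. Both lie outside its counting interval. CDK4, a kinase of the D cyclins, had 5075 reads in IDO1 indole, 5644 in IDO1 DMF, 3894 in WT indole and 5627 in WT DMF, or 265, 247, 201 and 265 CPM. IDO1 indole and WT DMF were level at the top and WT indole was lowest. CDK4 was 1.31-fold lower (1.26 to 1.37) in WT indole than in WT DMF and 1.07-fold higher (1.03 to 1.11) in IDO1 indole than in IDO1 DMF. CDK6, the other kinase of the D cyclins, had 494 reads in IDO1 indole, 619 in IDO1 DMF, 553 in WT indole and 391 in WT DMF, or 25.8, 27.1, 28.6 and 18.4 CPM. Here WT DMF alone was low and the other 3 libraries were not separable by counting error. CDK6 was 1.55-fold higher (1.36 to 1.77) in WT indole than in WT DMF and 1.48-fold higher (1.30 to 1.68) in IDO1 DMF than in WT DMF, comparisons that share the WT DMF library.

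The inhibitors went in different directions. CDKN1B had 836 reads in IDO1 indole, 1001 in IDO1 DMF, 1060 in WT indole and 959 in WT DMF, or 43.7, 43.9, 54.8 and 45.1 CPM. Only WT indole stood out from the others, 1.21-fold higher (1.11 to 1.33) than WT DMF. CDKN2C, the INK4 inhibitor known from mice to restrain growth of several tissues, had 369 reads in IDO1 indole, 539 in IDO1 DMF, 76 in WT indole and 373 in WT DMF, or 19.3, 23.6, 3.93 and 17.5 CPM. WT indole was far below the other 3 libraries, and its span of 6.02-fold from the highest to the lowest library was the widest of the 10 genes, ahead of CCND3 with 1.85-fold. CDKN2C was 4.47-fold lower (3.48 to 5.79) in WT indole than in WT DMF, the lowest log2 ratio (-1.91, CPM + 1) of all 8679 genes compared between those libraries, and 1.23-fold lower (1.07 to 1.40) in IDO1 indole than in IDO1 DMF. CDKN2D, the other INK4 inhibitor, had 389 reads in IDO1 indole, 415 in IDO1 DMF, 329 in WT indole and 564 in WT DMF, or 20.3, 18.2, 17.0 and 26.5 CPM. WT DMF was alone at the top for CDKN2D, and neighbouring libraries in the order of the other 3 were not separable. It was 1.56-fold lower (1.36 to 1.79) in WT indole than in WT DMF and 1.46-fold lower (1.28 to 1.66) in IDO1 DMF than in WT DMF.

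**Figure D1:**
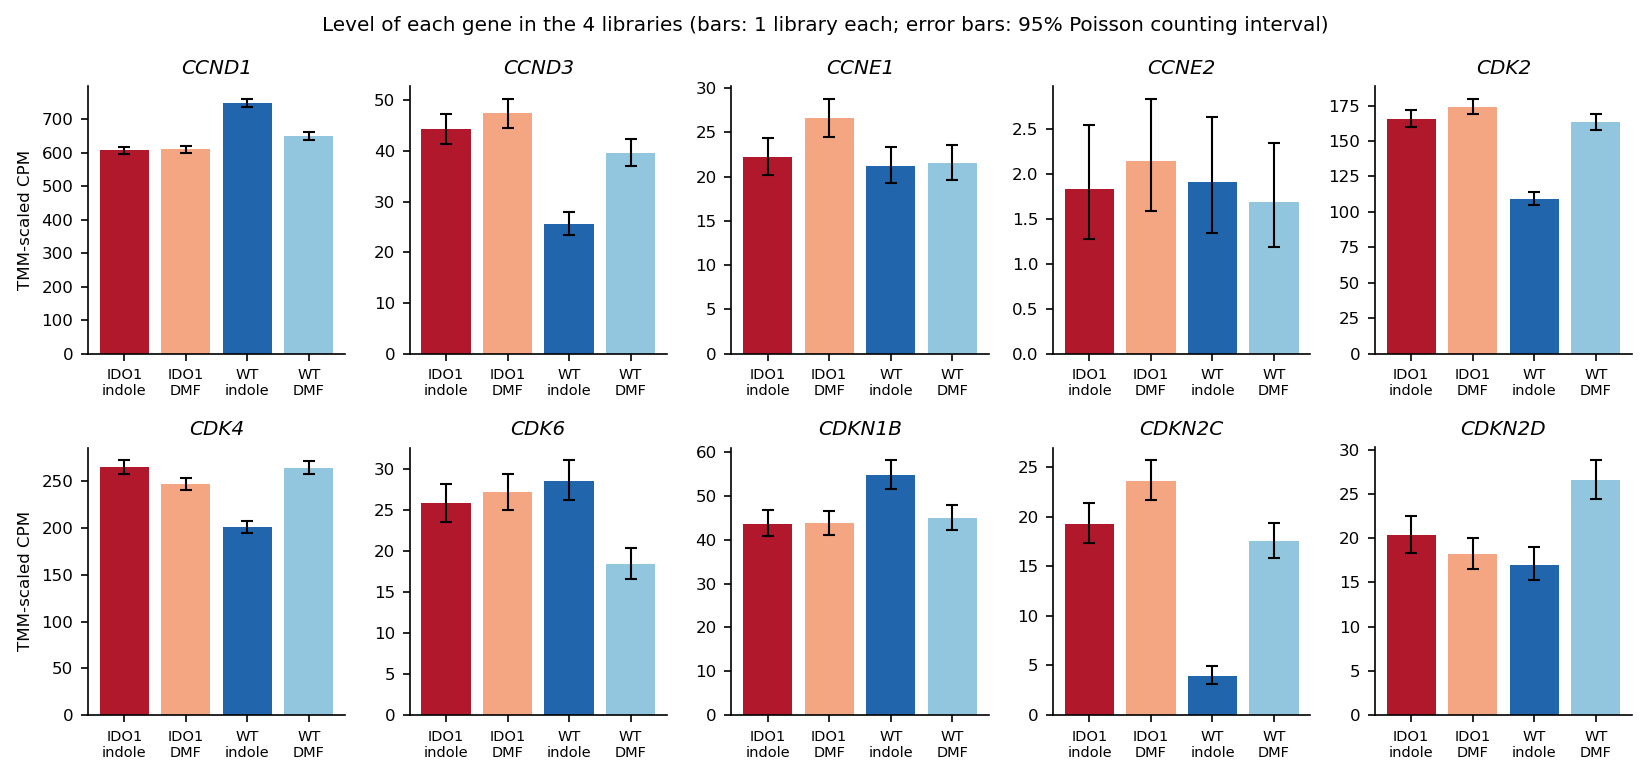
Level of each of the 10 genes in the 4 libraries, in TMM-scaled CPM, each with its 95% Poisson interval (counting error only). WT indole is lowest for CDKN2C, at 3.93 CPM against 17.5 to 23.6 CPM in the other 3 libraries, and highest for CCND1, CDK6 and CDKN1B.

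Each comparison was then set against all genes, beginning with indole in wild type cells. A gene was compared where it reached 10 CPM in at least 1 of the paired libraries, and it was counted when its log2 ratio of CPM + 1 passed 2-fold or 1.5-fold. Between WT indole and WT DMF, 1 of 9 compared genes passed 2-fold, CDKN2C, against a background of 2.9% of 8679 genes. At 1.5-fold, CDK6 was higher, against 7.09% of all genes, and CCND3, CDKN2C and CDKN2D were lower, against 9.72%, with CDK2 just outside. The median of the 9 log2 ratios was -0.39, and that of all genes was -0.04. With library totals in place of TMM factors, all genes past 1.5-fold split 1235 higher and 425 lower, from 615 and 844. The median of all genes moved to 0.14. Of the 9 genes only CDK6 and CDKN2C then passed 1.5-fold, where 19% of all genes did.

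In the IDO1 line none of the 9 genes passed 1.5-fold between indole and DMF, against a background of 0.716% at 1.5-fold and 0.0821% at 2-fold of 8523 genes. Their median log2 ratio was -0.07, beside -0.01 for all genes. The widest of the 9 were CDKN2C, at 1.23-fold lower, and CCNE1, at 1.20-fold lower.

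**Figure D2:**
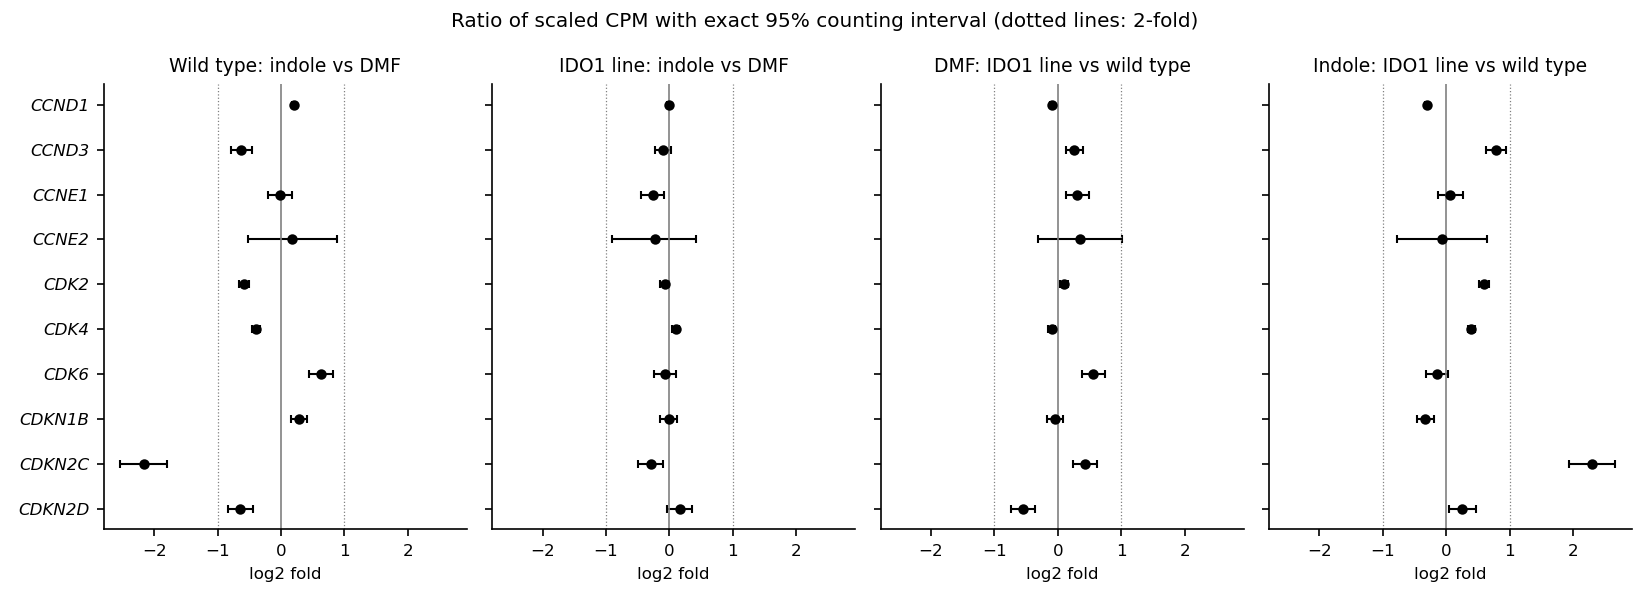
Fold of each of the 10 genes in the 4 comparisons (log axis), with 95% counting intervals; the first-named library is over the second. CDKN2C is 4.47-fold lower in WT indole than in WT DMF and 4.91-fold higher in IDO1 indole than in WT indole, comparisons that share the WT indole library.

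**Figure D3:**
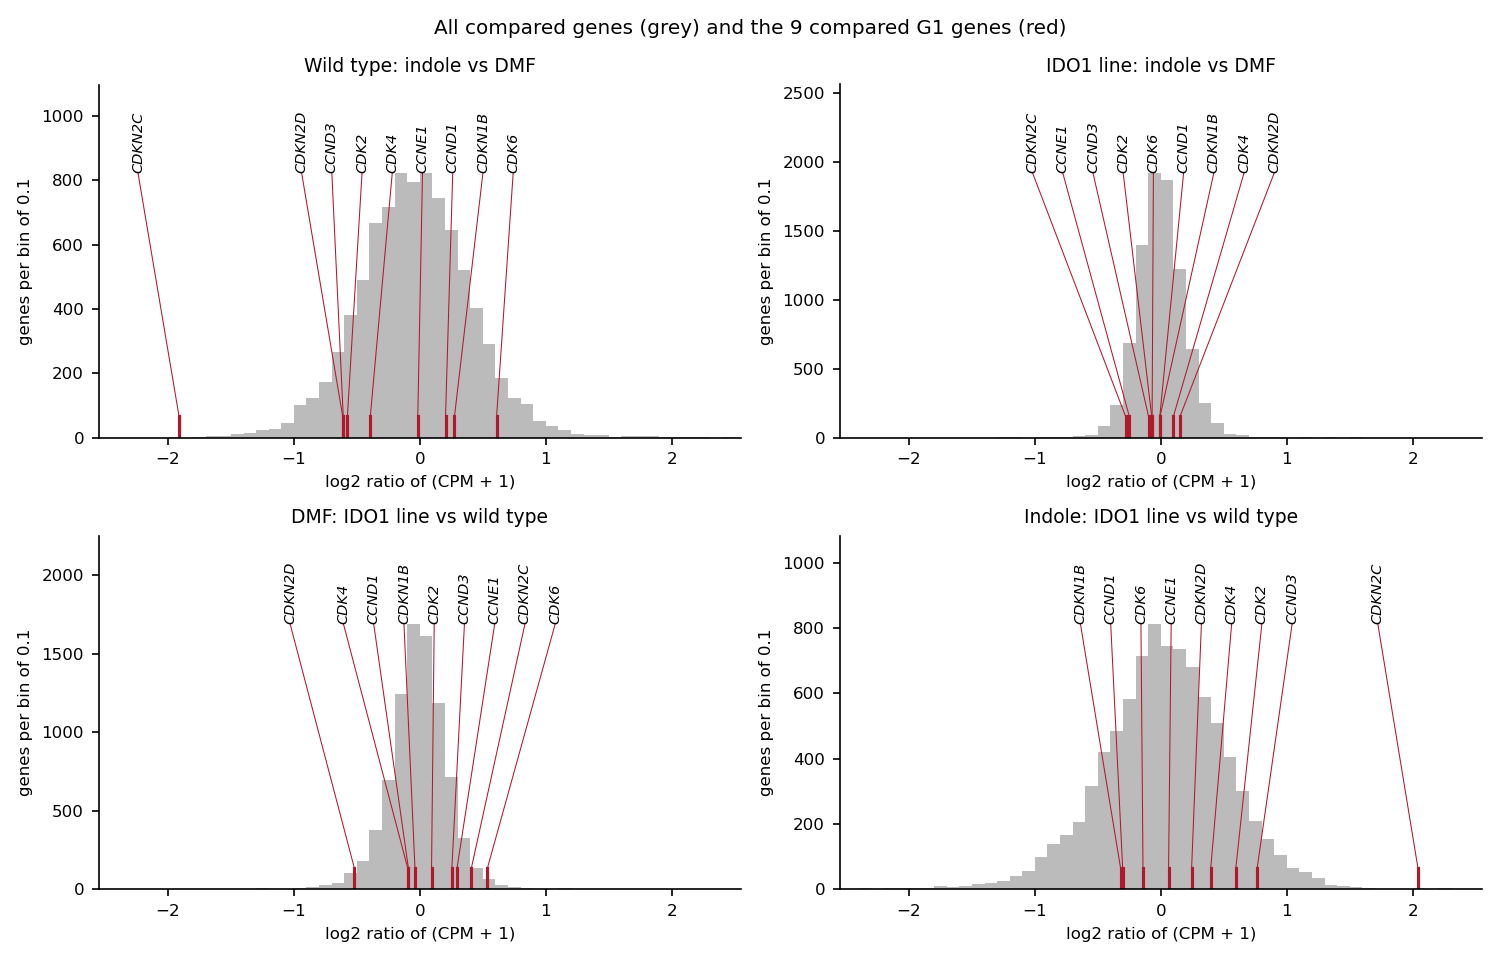
Distribution of log2 ratios of CPM + 1 over all compared genes in each comparison, with the 9 compared cyclin, CDK and inhibitor genes marked. CDKN2C lies at -1.91 for WT indole over WT DMF, the lowest of 8679 genes, while in the IDO1 line all 9 lie inside 1.5-fold; genes beyond the axis are not shown.

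The indole responses of the lines were then set against each other as the ratio of folds, the IDO1 line over wild type, with 95% Poisson intervals. The ratio was 3.65 (2.75 to 4.82) for CDKN2C, 1.74 (1.44 to 2.12) for CDKN2D, 1.44 (1.25 to 1.66) for CCND3, 1.42 (1.32 to 1.53) for CDK2 and 1.41 (1.33 to 1.49) for CDK4. These 5 genes were less low, or not low, with indole in the IDO1 line. It was below 1 for CDK6 at 0.612 (0.514 to 0.729), CDKN1B at 0.820 (0.722 to 0.930) and CCND1 at 0.863 (0.834 to 0.893), whose levels were higher with indole in wild type. CCNE1 at 0.845 (0.704 to 1.01) and CCNE2 at 0.754 (0.401 to 1.42) had intervals that include 1. On the log2 scale of CPM + 1, CDKN2C differed by at least 2-fold, 1 of 9 genes against a background of 4.75% of 8845 genes. CDKN2C and CDKN2D passed 1.5-fold upward, against 12.4% of all genes, and CDK6 downward, against 9.84%, and the median was 0.49 beside 0.03 for all genes. All of these ratios rest on the WT indole library that stood apart, and whether that library's other differences have a part in them was not tested.

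**Figure D4:**
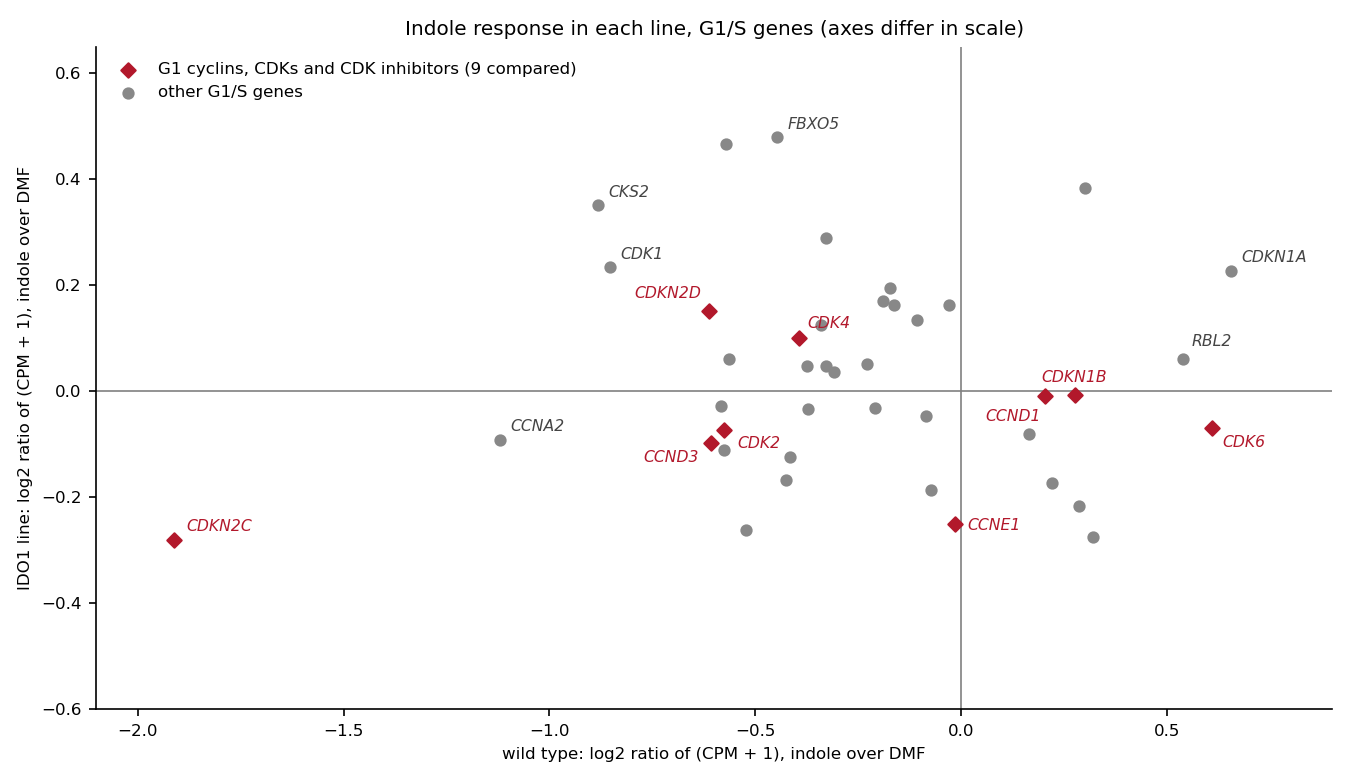
Log2 ratio of CPM + 1, indole over DMF, in the IDO1 line (vertical) against wild type (horizontal), 1 point per gene, for the 9 compared genes (red) and the other G1/S genes (grey); the axes differ in scale. CDKN2C is at -1.91 in wild type, and the red points span a wider range along the wild type axis than along that of the IDO1 line.

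Between the lines in DMF, no gene of the 9 passed 1.5-fold, where 2.15% of 8500 genes did and 0.447% passed 2-fold. CDK6 at 1.48-fold higher and CDKN2D at 1.46-fold lower in IDO1 DMF were the widest. Their log2 ratios were at rank 103 from the highest and rank 169 from the lowest of 8500. With library totals CDK6 passed 1.5-fold, where 2.39% of all genes did. CDKN2C was 1.35-fold higher (1.18 to 1.54) in IDO1 DMF, CCND3 was 1.20-fold higher (1.09 to 1.31) and CDK2 was 1.07-fold higher (1.02 to 1.12). CCND1 was 1.07-fold lower in IDO1 DMF with TMM factors and level with library totals, and the folds of CDK4, 0.935 (0.901 to 0.970), and CDKN1B, 0.973 (0.890 to 1.06), also crossed 1 under that scaling. The embryonic kidney markers moved with the line, as given above, and their part in these differences was not tested.

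Between the lines in indole, CDKN2C passed 2-fold, 1 of 9 genes against a background of 4.51% of 8765 genes, at 4.91-fold higher (3.83 to 6.37) in IDO1 indole than in WT indole. CCND3 at 1.73-fold higher (1.54 to 1.93) and CDK2 at 1.52-fold higher (1.43 to 1.60) joined it past 1.5-fold, where 11.6% of all genes were higher, and none of the 9 was lower, against 9.75%. CDK2 was just inside 1.5-fold and outside it with library totals. CDK4 was 1.32-fold higher (1.26 to 1.37) and CDKN2D was 1.20-fold higher (1.03 to 1.39) in IDO1 indole. CCND1 was 1.23-fold lower (1.20 to 1.26) and CDKN1B was 1.25-fold lower (1.14 to 1.37) in IDO1 indole. CCNE1, at a fold of 1.05 (0.911 to 1.20), and CDK6, at 0.903 (0.798 to 1.02), were not separable. The median of the 9 log2 ratios was 0.24 and that of all genes was 0.03.

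Ratios of reads between related genes in the same library need no scaling between libraries. In all, 4 such pairs were taken after their values were seen. A trend with expression level was not removed from them. Removing it moved the log2 folds of WT indole over WT DMF to 0.50 from 0.20 for CCND1 and to -0.19 from -0.39 for CDK4. Those of CCND3, -0.62 from -0.63, and CDK6, 0.61 from 0.64, moved less. Reads of CCND1 per read of CCND3 were 13.7 in IDO1 indole, 12.9 in IDO1 DMF, 29.2 in WT indole and 16.4 in WT DMF. The D cyclin balance was thus 1.78-fold further toward CCND1 (1.59 to 1.99) in WT indole than in WT DMF, and 1.07-fold (0.971 to 1.17) in the IDO1 line. Reads of CDK6 per read of CDK4 were 0.0973 in IDO1 indole, 0.110 in IDO1 DMF, 0.142 in WT indole and 0.0695 in WT DMF. That kinase ratio was 2.04-fold higher (1.78 to 2.34) in WT indole than in WT DMF, 0.888-fold (0.784 to 1.00) in the IDO1 line, and 1.58-fold higher (1.38 to 1.80) in IDO1 DMF than in WT DMF. Reads of CDKN2C per read of CDKN2D were 0.949 in IDO1 indole, 1.30 in IDO1 DMF, 0.231 in WT indole and 0.661 in WT DMF. The INK4 ratio was 2.86-fold lower (2.16 to 3.79) in WT indole than in WT DMF, 1.37-fold lower (1.13 to 1.66) in IDO1 indole than in IDO1 DMF, and 1.96-fold higher (1.64 to 2.36) in IDO1 DMF than in WT DMF. Reads of CCNE1 per read of CCNE2 kept within 11.1 to 12.7 over the libraries, and the ratio in WT indole over WT DMF was 0.875 (0.543 to 1.41). Amplicons can differ in efficiency, so such a ratio compares libraries and gives no relative amount of the paired transcripts.

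**Figure D5:**
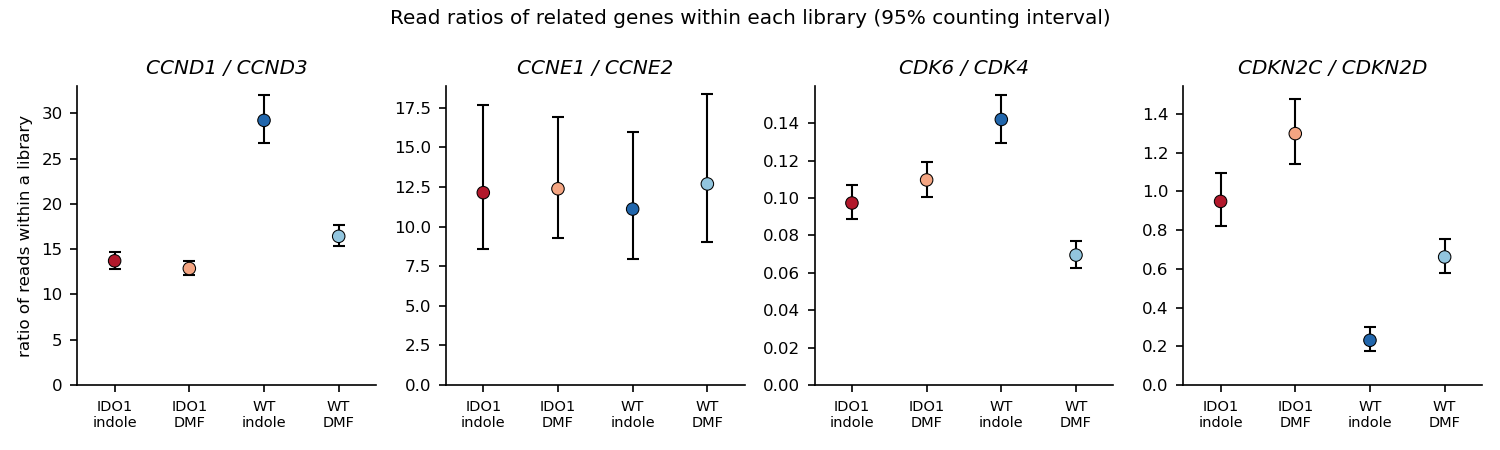
Reads of a gene per read of a related gene within each of the 4 libraries, with 95% counting intervals. WT indole has the highest CCND1 to CCND3 ratio, 29.2, and CDK6 to CDK4 ratio, 0.142, and the lowest CDKN2C to CDKN2D ratio, 0.231, while the CCNE1 to CCNE2 ratios lie between 11.1 and 12.7.

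An additive model over the 4 libraries, with a term for line and a term for treatment, left 1 residual degree of freedom and was fitted to 13122 genes with edgeR's quasi-likelihood test and Benjamini-Hochberg adjustment. For indole over DMF in both lines it called 0 genes, 0% of the background, with 448 genes at an unadjusted p under 0.05, and DESeq2 called 0 with 127. None of the 10 genes was called, and CDKN2C, with a log2 change of -1.15 (approximate SE 0.32), had the lowest adjusted p of the 10 by edgeR, 0.901. With no filter on low counts CDKN2C was called for indole (edgeR adjusted p 0.0333), and the lowest adjusted p among the 10 was 0.0601 with 10 CPM required in 2 libraries and 0.151 with library totals. Relative log expression size factors and DESeq2 called none of the 10 for indole. For the IDO1 line over wild type it called 322 genes, a background of 2.45%, 1 of the 10 among them. That gene was CDKN2C, with a log2 change of 1.29 (approximate SE 0.32) and an edgeR adjusted p of 0.0187, with both IDO1 libraries above their wild type counterparts. The call was lost with relative log expression size factors (adjusted p 0.0756) and with DESeq2 (adjusted p 0.195). Without WT indole the contrast is the DMF one, a log2 fold of 0.43 with no test.

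The other genes of the G1 to S step, a list of 37, give the setting of these values. With indole in wild type 31 of them were compared, with a median log2 ratio of -0.31. Of these, 25 were below 0, against 53.8% of all genes. With library totals it was 20, against 37.5% of all genes, with a median of -0.14. CCNA2, the A cyclin of S phase and mitosis, was 2.20-fold lower (2.02 to 2.41) in WT indole than in WT DMF. The mitotic kinase CDK1 was 1.83-fold lower (1.68 to 1.99) and its binding partner CKS2 was 1.86-fold lower (1.72 to 2.02). CDKN1A, the p53-induced CDK inhibitor, was the 1 gene past 1.5-fold upward, against 7.09% of all genes. It was at 421 CPM in WT indole and 267 CPM in WT DMF. The pocket proteins RB1 and RBL2, which hold E2F factors in check, did not pass 1.5-fold, although RBL2 did with library totals: RB1 was 1.35-fold lower (1.20 to 1.51) and RBL2 was 1.48-fold higher (1.30 to 1.68) in WT indole. All 8 compared E2F and DP factors had log2 ratios below 0 in WT indole over WT DMF, 7 of them with library totals. Their median was -0.28 and none passed 1.5-fold. E2F4 was just outside on the scale of CPM + 1, and without pseudocount it was 1.51-fold lower (1.41 to 1.61). Of the 8, E2F6 at a fold of 0.978 (0.853 to 1.12) and E2F7 at 0.877 (0.721 to 1.07) were not separable by counting error.

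In the IDO1 line none of 33 compared genes of that list passed 1.5-fold with indole, against 0.716% of all genes. The median of the 33 was 0.05. Between the lines in DMF 1 of 32 passed 1.5-fold, against 2.15% of all genes. That gene was CDKN2A, which codes for another INK4 inhibitor and for ARF. It had 174 reads in IDO1 indole, 256 in IDO1 DMF, 99 in WT indole and 83 in WT DMF. CDKN2A was 2.87-fold higher (2.24 to 3.73) in IDO1 DMF than in WT DMF and was called for the line by edgeR in the additive fit (log2 change 1.17, adjusted p 0.0244). Between the lines in indole 11 of 32 passed 1.5-fold upward in IDO1 indole, against 11.6% of all genes, and none passed it downward, against 9.75%; with library totals 9 passed upward and 1 downward, against 8.81% and 12.5%. Of the 32, 6 had a log2 ratio below 0, against 47.2% of all genes. The 6 included CDKN1A at 1.39-fold lower (1.34 to 1.43) and CDK7, the CDK-activating kinase, at 1.48-fold lower (1.37 to 1.60). The 11 past 1.5-fold were CCNA2 at 2.40-fold, CDC25A, a phosphatase that activates CDKs, at 2.24-fold, CDK1 at 2.18-fold, FBXO5, an inhibitor of cyclin destruction, at 1.85-fold, and CKS2 at 1.83-fold. SKP2, which targets CDKN1B for degradation, was 1.80-fold higher, CCNH, the cyclin of the CDK-activating kinase, 1.74-fold, E2F5 1.68-fold, E2F2 and E2F7 1.64-fold each and E2F4 1.53-fold. CCND2, the third D cyclin, was under 10 CPM everywhere and is named after its values were seen: it had 81 reads in IDO1 indole and 97 in IDO1 DMF, against 0 in WT indole and 1 in WT DMF. It was called for the line by edgeR in the additive fit (adjusted p 2.48e-07) and was at least 27.3-fold higher in IDO1 indole than in WT indole, taking 3 reads as the floor of WT indole. CDKN2A, unlike CCND2, had reads in every library. The embryonic kidney genes were likewise higher in the IDO1 line, and the part of the source of those transcripts in either difference was not tested.

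Genes that act after this step were measured beside them. Of 28 compared E2F target genes of S phase all 28 had a log2 ratio below 0 in WT indole over WT DMF, against 53.8% of all genes, and 12 were past 1.5-fold lower, against 9.72%, with a median of -0.55. With library totals 27 were below 0, against 37.5% of all genes, and 7 past 1.5-fold lower, against 4.86%. TYMS, the thymidylate enzyme, was at 281 CPM in WT indole and 624 CPM in WT DMF, and the replication helicase genes MCM6 and CDC45 were at 144 and 39.1 CPM in WT indole and at 278 and 77.6 CPM in WT DMF. Of 10 compared mitosis genes 9 were past 1.5-fold lower, against the same 9.72% of all genes, with a median of -1.13, or 8 and -0.96 with library totals. They were led by BIRC5 at 2.54-fold, CCNB1 at 2.51-fold and CDC20 at 2.42-fold lower. In the IDO1 line the medians of the same lists were 0.06 and -0.01. The part of the makeup of cells by cycle phase in the lower CDKN2C, CCND3, CDK2 and CDK4 of WT indole was not tested.

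The 5 genes whose profile over the 4 libraries was most like that of CDKN2C, by Euclidean distance of centred log2 CPM + 1 among 8844 genes, were SPC24 at 0.393, ZHX1 at 0.498, C14orf142 at 0.511, CENPW at 0.557 and HIST1H2BM at 0.574. SPC24 and CENPW code for kinetochore proteins, and HIST1H2BM is a histone gene with near-identical copies whose reads are uncertain. SPC24 was at 46.8 CPM in IDO1 indole, 54.7 in IDO1 DMF, 14.8 in WT indole and 47.4 in WT DMF. As with CDKN2C, WT indole was lowest for each of the 5, a feature that the choice by profile selects for.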

How the data were processed

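RNA from HCT116 cells was measured by AmpliSeq in 4 libraries, 1 per group, with column-purified total RNA per the labels' protocols. The authors deposited whole-number read counts per target without normalization; the build is hg19 per the submitters' processing notes, and the aligner and counter are not given in the sources used here. All 4 count columns were used. Counts were scaled with TMM factors over the 4 libraries (edgeR 4.0.16, limma 3.58.1, R 4.3.3) to a common library size (CPM). The 10 targets named for synthetic ERCC spike-in RNAs had no reads. Pairwise comparisons used genes at 10 CPM or more in at least 1 library and log2 ratios of CPM + 1, with no test. Folds of single genes used no pseudocount and had 95% Clopper-Pearson intervals (exact) on the share of reads in each library; the floor for 0 reads was 3. Amplicon reads carry no molecular identifiers and are not independent molecules: intervals cover counting error only, and each library's floor was 0.131 to 0.157 CPM. An additive model of line and treatment was fitted with edgeR (quasi-likelihood, 1 residual degree of freedom, adjusted p threshold 0.05), and DESeq2 1.42.0 was an alternative. Its p-values test the term for line or the term for treatment. The error they are set against draws on the departure of the 4 libraries from additivity, not on the spread of separate cultures. That error is shared in part over the genes fitted, so the p-value of a gene also rests on the scatter of other genes. The code was tested on simulated data. Named genes were the 10 members, other G1/S genes past 1.5-fold in a comparison (or the 2 furthest apart of a group with none), the 3 furthest apart E2F target and mitosis genes, and the 5 nearest profiles. Of the cell cycle genes, E2F6, CDK7, CCND2 and MCM5 were named outside this rule. Members and lists were chosen with earlier results of these data known. Promoter windows came from RefSeq (GRCh38.p14), matched by symbol.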

Additional observations from a re-analysis of the deposited data

Results flagged for a closer look

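CDK4 had indole responses of opposite direction in the lines: 1.07-fold higher (1.03 to 1.11) in IDO1 indole than in IDO1 DMF, and 1.31-fold lower (1.26 to 1.37) in WT indole than in WT DMF. With a trend with expression level removed, the wild type fold moved from 0.761 to 0.878, outside its counting interval, and kept its direction. The log2 ratio in the IDO1 line was at rank 2287 from the highest of 8523. That in wild type was at rank 1713 from the lowest of 8679. The ratio of the folds, IDO1 line over wild type, was 1.41 (1.33 to 1.49). The difference was not tested, since each group had 1 library.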

How the results depend on the processing

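Among the folds of single genes, 128 of 156 recomputed values stayed within the counting interval of the value reported, 28 moved outside it, and none that was past 1.5-fold changed direction. As reported, 4 of 9 genes were past 1.5-fold for WT indole over WT DMF, where 16.8% of all genes were. With library totals it was 2, where 19% of all genes were. With totals without the 10 most abundant genes it was also 2, where 19.3% were. With a pseudocount of 5 it was 1, where 12.6% were. With a minimum of 50 CPM, which leaves 4 genes, it was 0, where 18.3% were. Both changes of totals gave 1 of 9 genes past 1.5-fold for IDO1 DMF over WT DMF, where 2.39% of all genes were. As reported it was 0, where 2.15% were. The minimum of 50 CPM left 0 genes past 2-fold for WT indole over WT DMF, where 2.97% of all genes were, against 1 as reported. It also left 0 for IDO1 indole over WT indole, where 4.45% were, and 0 for the difference of responses, against 1 each. For IDO1 indole over WT indole it left 1 of 4 past 1.5-fold, where 22.9% of all genes were. As reported it was 3 of 9, where 21.4% were. CDKN2C lies under 50 CPM in all libraries. Library totals turned the split past 1.5-fold for IDO1 indole over WT indole to 780 higher and 1106 lower, from 1017 and 855, and that for IDO1 DMF over WT DMF to 139 and 63, from 76 and 107. In the additive fit, indole called 6 genes with library totals, 10 with no filter and 5 with 10 CPM in 2 libraries, against 0; CDKN2C was among them with no filter (edgeR adjusted p 0.0333). The line called 74 genes with 10 CPM in 2 libraries and 88 with DESeq2, against 322; the cause was not tested. For CDKN2C over all alternatives the adjusted p for the line ran from 0.000104 to 0.195. Leaving out a library leaves the additive fit no residual degree of freedom, so no test was run. No paired analysis was possible because each group had 1 library and no replicate number. CCNE2, with 35 to 49 reads, could not show differences under the width of its intervals.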

Other observations

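MCM5, a subunit of the replication helicase, was chosen after its values were seen. It was at 371 CPM in IDO1 indole, 234 CPM in IDO1 DMF, 241 CPM in WT indole and 371 CPM in WT DMF. IDO1 DMF and WT indole were the low libraries, whereas MCM6, of the same helicase, was at 301, 296, 144 and 278 CPM and was low in WT indole alone. MCM5 was 1.59-fold higher (1.53 to 1.64) in IDO1 indole than in IDO1 DMF and 1.54-fold lower (1.49 to 1.60) in WT indole than in WT DMF.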
